A study of Mus with 15 samples.

Results

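The potassium channel genes of the mouse were followed through 11 peak lists of monoubiquitinated histone H2A (H2Aub) from the thalamus. The set comprised every protein-coding gene on chromosomes 1 to 19 whose symbol starts with Kcn, which gave 92 of 20661 genes in the RefSeq annotation of GRCm38.p6, an assembly with the mm10 coordinates used by the peak lists. A gene was counted as carrying a peak when at least 1 bp of a peak fell in its window, defined as the gene body plus 5 kb on each side. The length under peaks is the number of window bases covered by peaks, and its density is that length per kb of window.

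H2Aub was profiled by ChIPmentation, in which chromatin fragments recovered with an antibody are tagged with sequencing adapters by a transposase while still on the beads. Each library was made from pooled thalami of adult mice aged 2 to 4 months (3 to 4 thalami per the sample labels, 2 to 4 per the methods of the study), and peaks were called for each library separately against input chromatin. WT mice carried the floxed Maged1 allele without Cre (genotype label Maged1 Loxp), and cKO mice (label Maged1cKO) had lost Maged1 through a Cre recombinase driven by the vGluT2 promoter, so that deletion is limited to cells that have used that promoter and other thalamic cells keep the gene. After 3 days of saline injections in all mice, cocaine at 20 mg/kg or its saline vehicle was given intraperitoneally for 5 days. The WT mice yielded 3 libraries per treatment, and the cKO mice 2 after cocaine and 3 after saline.

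Potassium channels let potassium leave or enter the cell along its gradient, and thereby set the resting potential, end the action potential and tune the switch between tonic and burst firing for which thalamic relay neurons are known. Most are built from pore-forming alpha subunits encoded by large paralogous families: voltage-gated (Kcna to Kcnd, Kcnq and Kcnh), inwardly rectifying (Kcnj), two-pore leak (Kcnk) and calcium- or sodium-activated (Kcnn, Kcnma, Kcnt), joined by auxiliary subunits (Kcnab, Kcne, Kcnip, Kcnmb). The E3 ligases RING1 and RNF2 of Polycomb repressive complex 1 add the ubiquitin to H2A, and the mark is found at many silent or weakly used promoters. Many Polycomb targets are genes used in only some cell types.

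The lists held 7271 to 80713 peaks, and the depth of each single library was unknown here because the lists give no read counts. The replicates numbered 1 of both cKO groups stood apart from the others. They held 7542 (cKO cocaine) and 6877 (cKO saline) peaks with q of at most 1e-10, against 3 to 13 in each of the other 9 libraries, and fold enrichment over input reached 31.2 and 52.6 against 5.98 to 12.2. Within the Kcn windows the same 2 libraries had such strong peaks at 24 and 26 genes and the other 9 at 0. The cKO group comparisons below are therefore also given without them. Markers of thalamic excitatory neurons (Slc17a6, Tcf7l2, Rora and Calb2) had a peak at 0 to 4 of 4 genes per library, and a histone mark does not measure expression, so that no cell type was checked by these lists.

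Kcn genes carried H2Aub peaks far more often than other coding genes in every library. In WT cocaine, 50, 57 and 52 of the 92 genes had a peak in replicates 1, 2 and 3. The WT saline libraries had 57, 38 and 44, the cKO cocaine libraries 79 and 49, and the cKO saline libraries 82, 46 and 30. The numbers were highest in the 2 cKO libraries with strong peaks, and the groups overlapped. Over the 11 libraries, 57.7% ± 17.0 (SD, n = 11) of Kcn genes had a peak against 27.5% ± 15.4 of the 20569 other coding genes. The difference was 30.2 ± 4.57 percentage points (SD) and was positive in 11 of 11 libraries, from 19.4 to 34.7 points (exact two-sided sign-flip permutation test, p = 0.000977, the smallest this test can give; adjusted over 2 tests, 0.00195). Without the cKO replicates numbered 1 it was 30.1 ± 4.92 points in the other 9 libraries.

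**Figure D1:**
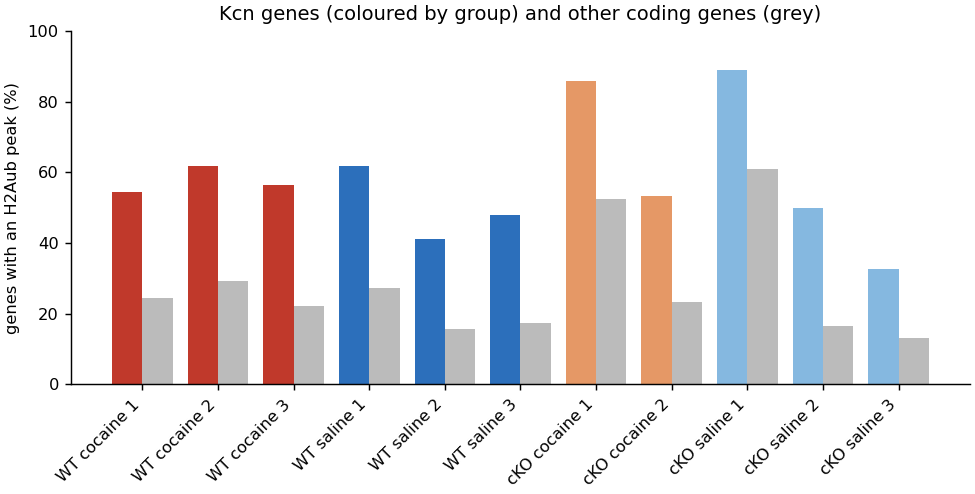
Percentage of genes with an H2Aub peak (y axis) in each of the 11 libraries (x axis), for the 92 Kcn genes (coloured by group) and the 20569 other coding genes (grey). The Kcn bar is the taller of each pair, by 19.4 to 34.7 percentage points.

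The excess was not matched by more covered bases over the whole windows. Kcn windows had 7.66 ± 4.23 bp under peaks per kb and those of the other coding genes 7.78 ± 3.78 (SD, n = 11). The log2 ratio of the densities was -0.07 ± 0.15, positive in 4 of 11 libraries (exact sign-flip permutation test, p = 0.151). At the gene ends, taken from 5 kb outside to 2 kb inside at both ends, the Kcn genes had 40.0 bp per kb and the others 20.7. This ratio was 1.85-fold, ranged from 1.54 to 2.28 and exceeded 1 in 11 of 11 libraries (log2 ratio 0.89 ± 0.18, SD; exact sign-flip permutation test, p = 0.000977). With the gene body alone the ratio turned to a deficit (log2 ratio -0.11, exact permutation p = 0.0215), so that the direction depended on which part of the gene was measured.

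Gene length separated these readings. Kcn windows had a median of 44.5 kb against 27.4 kb for the other coding genes, and a longer window can meet a peak more easily. Among windows under 30 kb, 51.9% of the 34 Kcn genes and 21.7% of the others had a peak on average, and the density was 33.0 against 21.9 bp per kb. Among windows of 30 to 100 kb the shares were 69.4% for 33 Kcn genes and 29.9%, and the densities 25.6 and 8.32 bp per kb. Both measures were higher for the Kcn genes in 11 of 11 libraries in both classes. Among the 25 Kcn genes with windows over 100 kb the share was 50.2% against 46.0%, higher in 9 of 11 libraries, whereas the density of 2.29 bp per kb lay below the 3.94 of the other long genes in 11 of 11. The long class holds channel genes such as Kcnd2, Kcnma1, Kcnq3 and Kcnn2, in which peaks were few.

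**Figure D2:**
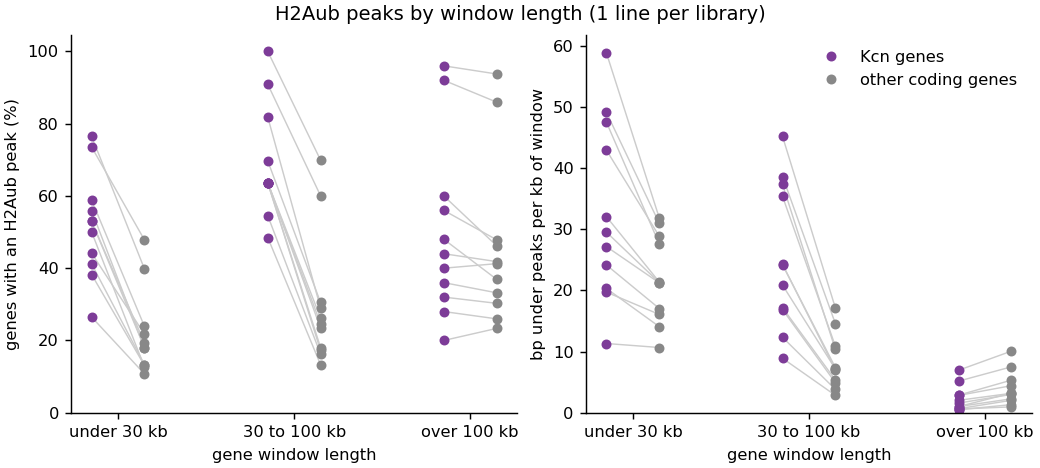
Percentage of genes with an H2Aub peak (left) and bp under peaks per kb of window (right) for Kcn genes and other coding genes in 3 classes of window length (x axis), with 1 pair of joined points per library. Kcn points lie above their partners in the first 2 classes, and in the class over 100 kb all 11 Kcn densities lie below.

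The same genes carried the mark again and again. A peak was present in all 11 libraries at 22 Kcn genes (23.9%, against 7.06% of the other coding genes), and 5 genes had none in any library (5.43% against 31.4%). Without the cKO replicates numbered 1, the same 22 genes had a peak in all 9 libraries and 16 genes had none (17.4%, against 58.3% of the others). The 5 genes with no peak were Kcnj13, Kcne2, Kcnk7, Kcnv2 and Kcnrg. A further 11 genes, Kcnd2, Kcnj3, Kcna4 and Kcnh7 among them, had peaks only in the 2 cKO libraries with strong peaks. The most shared site lay within 2 kb of a gene end at 55 of the 87 genes with a peak and inside the gene at 69. Among the 16 genes whose site was in 9 or more libraries, it lay within 2 kb of an end at 9. Sites were not counted for the other coding genes, and in short genes few bases lie further from an end. The annotation used gave no strand, and a start site was therefore not distinguished from the opposite end. Of the 92 windows, 40 also met the window of another coding gene, and 1 pair of Kcn windows overlapped (Kcnip1 and Kcnmb1).

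**Figure D3:**
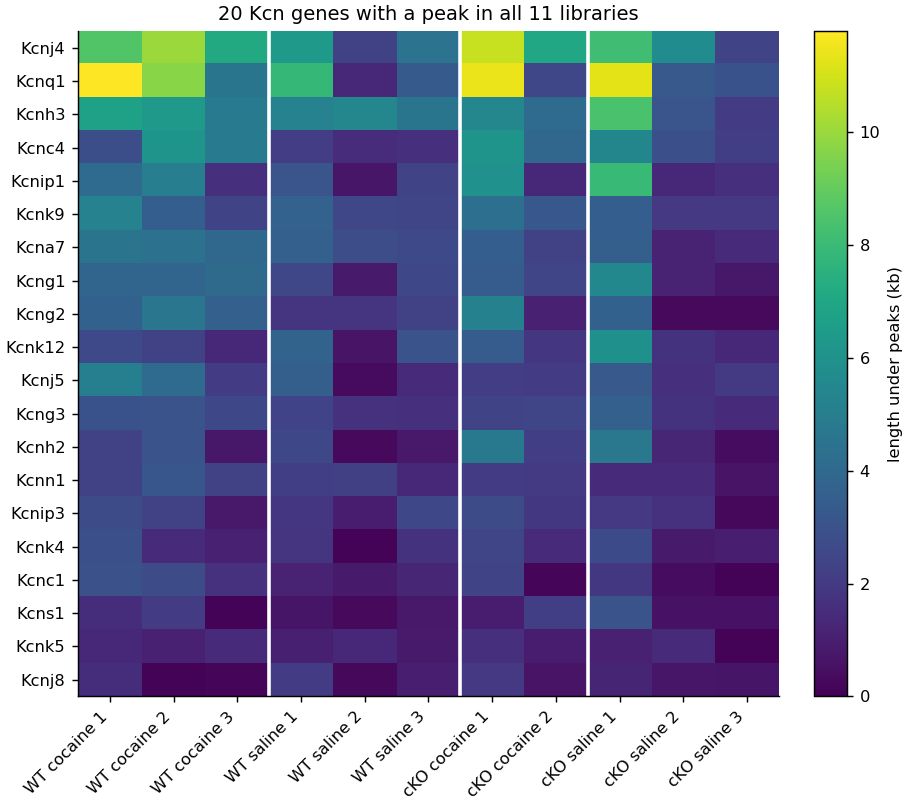
Length under H2Aub peaks in kb (colour) for 20 of the Kcn genes with a peak in all 11 libraries (rows, ordered by the mean of the group means) and the 11 libraries (columns, groups divided by white lines). Kcnj4, Kcnq1 and Kcnh3 lead, and windows differ in length, so rows are to be compared along the row.

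Of the voltage-gated alpha subunits, Kcnc1 (Kv3.1), a subunit of the fast delayed rectifiers that permit high-frequency firing, had a peak in all 11 libraries. Its length under peaks was 2941, 2699 and 1691 bp after cocaine in WT mice and 1118, 837 and 1288 bp after saline. It was 2408 and 174 bp in cKO cocaine, and 1921, 414 and 131 bp in cKO saline. The WT groups were separate, and within each cKO group the first replicate was far above the rest. Its paralog Kcnc4 (Kv3.4) was covered more densely, at 116 against 26.9 bp per kb as a mean of the 4 group means, and had peaks in all 11 libraries. Kcnc2 had peaks in 2.

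Kcna1 (Kv1.1), the axonal low-threshold subunit, had a peak in 6 libraries. In WT mice its lengths were 0, 509 and 0 bp after cocaine and 263, 0 and 0 bp after saline, and in cKO mice 1170 and 122 bp after cocaine and 897, 574 and 0 bp after saline. Both cKO cocaine libraries had a peak, and the other 3 groups held libraries with and without one. Kcnd2 (Kv4.2), an A-type subunit of dendrites, had 271 bp in cKO cocaine replicate 1, 126 bp in cKO saline replicate 1 and 0 in the other 9 libraries. These 3 genes therefore spanned the range from a peak in every library to almost none. Kcnd3 (Kv4.3), the other autosomal Kv4 gene, had peaks in 10 libraries.

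Within the Shaker-type family Kcna, Kcna7 was the exception. It had a peak in all 11 libraries and the highest density of all 92 genes, 199 bp per kb, whereas the other 7 Kcna genes had peaks in 1 to 7 libraries. Its lengths ran from 2583 to 4558 bp in the 6 WT libraries and from 1191 to 3589 bp in the 5 cKO libraries. The most shared site of Kcna7 (chromosome 7, 45413963 to 45414128, in 10 libraries) lay 2.66 kb outside the gene and inside the neighbouring gene Ntf5, so that the signal of this window is shared with that locus.

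The electrically silent subunits Kcnf, Kcng, Kcns and Kcnv do not form channels alone and modify the channels of other subunits. Their 10 genes were marked in 67.3% ± 13.5 of cases (SD, n = 11 libraries; 40.0 to 90.0%) at 28.6 bp per kb, and the 16 Kv1 to Kv4 genes in 57.4% ± 19.7 at 7.04 bp per kb. Kcng was the most uniformly marked family of more than 1 gene. Kcng1, Kcng2 and Kcng3 had peaks in 11 libraries and Kcng4 in 7, and the Kcng share lay above that of the remaining Kcn genes in 11 of 11 libraries (90.9% against 56.2% on average). Kcnv1 and Kcnv2 lay at the other extreme with 3 and 0 libraries.

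Among the KCNQ genes, of which 60.0% carried a peak on average over the libraries, Kcnq1, best known from the heart, had a peak in all 11 and Kcnq3, a neuronal subunit, in 3. Kcnq1 (chromosome 7, 143106877 to 143427050) had the second greatest length under peaks in a window of 330.2 kb. It ranged from 4588 to 11794 bp in WT cocaine, from 1313 to 7853 bp in WT saline, from 2528 to 11456 bp in cKO cocaine and from 2953 to 11301 bp in cKO saline, and these ranges overlapped. Its most shared site, in 10 libraries, lay 0.759 kb inside the lower-coordinate end. The long noncoding RNA gene Kcnq1ot1 inside Kcnq1, known from the imprinting of this domain, held 261 bp under peaks in WT cocaine replicate 2, 359 bp in cKO cocaine replicate 1, 322 bp in cKO saline replicate 1 and none in the other 8, so that little of the Kcnq1 signal lay there.

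In the EAG, ERG and ELK families, Kcnh3 (Elk2, chromosome 15, 99224517 to 99242818) was the second densest of all Kcn genes at 180 bp per kb. It had 6769, 6321 and 4850 bp under peaks after cocaine in WT mice and 5252, 5455 and 4581 bp after saline. It had 5471 and 4111 bp in cKO cocaine and 8408, 3093 and 2078 bp in cKO saline. The WT groups overlapped at this gene. The widest Kcn peak of the list lay at Kcnh3 in 7 of the 11 libraries, up to 6604 bp in WT cocaine replicate 1, and 1 stretch (99225934 to 99226224) was under a peak in all 11. Kcnh2 (ERG1) also had peaks in all 11 libraries and Kcnh1 in 10, while Kcnh7 and Kcnh8 had them in 2 and 3.

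The inward rectifiers were marked at 48.5% of 15 genes on average over the 11 libraries and at 42.2% over the 9 without the cKO replicates numbered 1, and they held the gene with the greatest length under peaks. Kcnj4 (Kir2.3, chromosome 15, 79480226 to 79512511), a rectifier that holds neurons near the potassium equilibrium potential, had 8583, 10027 and 7142 bp under peaks after cocaine in WT mice and 6314, 2311 and 4482 bp after saline. It had 10785 and 7056 bp in cKO cocaine and 8194, 5725 and 2418 bp in cKO saline. WT cocaine lay above WT saline without overlap, and the cKO groups overlapped. A stretch of 379 bp (79504743 to 79505121), 7.58 kb inside the higher-coordinate end, was under a peak in all 11 libraries. The G protein-activated rectifiers differed from each other: Kcnj5 had peaks in 11 libraries, Kcnj6 in 8, Kcnj9 in 1 and Kcnj3 in 1. The glial rectifier Kcnj10 had peaks in 3 libraries. The ATP-sensitive pores Kcnj8 and Kcnj11 had them in 11 and 8.

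**Figure D4:**
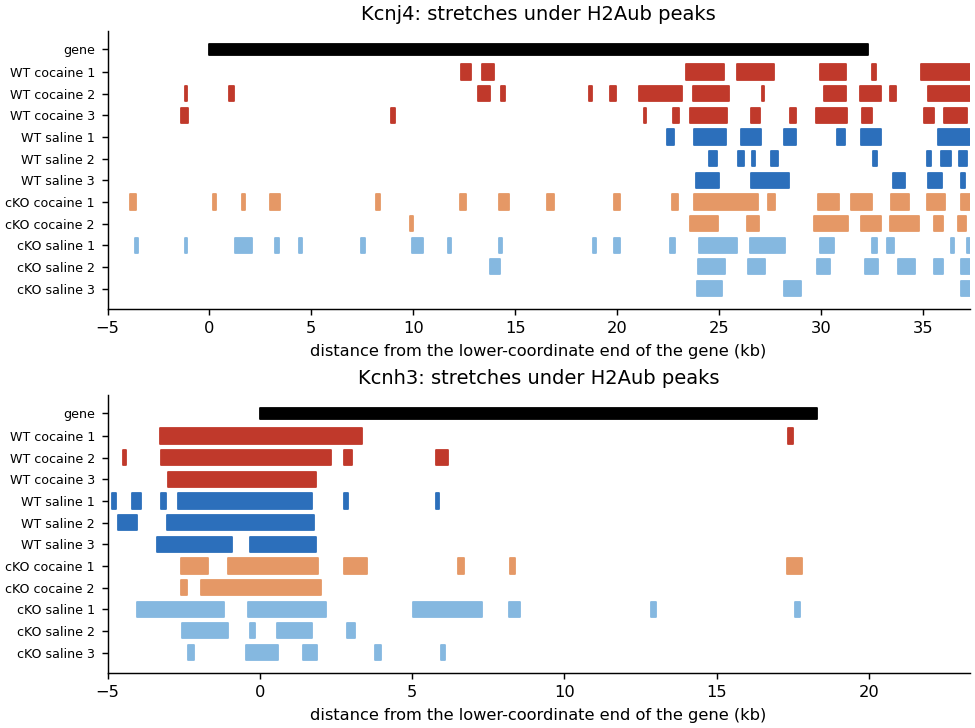
Stretches under H2Aub peaks (bars, coloured by group) in each of the 11 libraries over Kcnj4 (top) and Kcnh3 (bottom), against distance in kb from the lower-coordinate end of the gene, which is drawn as the black bar. At Kcnj4 a stretch 7.58 kb inside the right end, and at Kcnh3 a stretch 1.56 kb inside the left end, is covered in all 11 libraries.

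The two-pore leak channels had the highest mean share of any class over the 11 libraries. Their share was 83.3% ± 4.12 in WT cocaine and 71.4% ± 7.14 in WT saline (SD, n = 3 each) of 14 genes, and 75.0% ± 25.3 in cKO cocaine (n = 2) and 59.5% ± 29.7 in cKO saline (n = 3). In cKO cocaine the KCNQ (80.0%) and Kv alpha (76.9%) means were higher, and in cKO saline those of the EAG, ERG and ELK genes (66.7%), the Kv alpha genes (64.1%) and the KCNQ genes (60.0%). Over the 11 libraries the two-pore share averaged 72.1% against 55.1% for the remaining Kcn genes. It was higher in 10 libraries and lower in 0. Without the cKO replicates numbered 1 the averages were 67.5% and 48.1%. Kcnk9 (TASK-3), an acid-sensitive leak channel of thalamic relay neurons, had a peak in all 11 libraries, with 1950 bp in cKO saline replicate 3 as its lowest and 5234 bp in WT cocaine replicate 1 as its highest value. Kcnk3 (TASK-1) had peaks in 9, and Kcnk4, Kcnk5 and Kcnk12 in 11. Kcnk2 (TREK-1) had peaks in 4 and Kcnk7 in none.

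**Figure D5:**
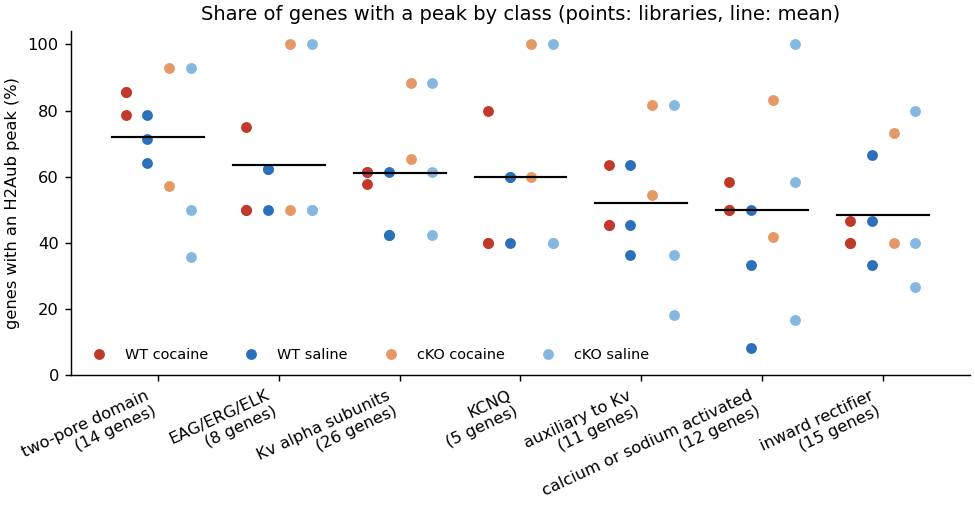
Percentage of the genes of each potassium channel class with an H2Aub peak (y axis) in each library (points, coloured by group, some hidden behind equal values) and the mean over the 11 libraries (black line). The two-pore class has the highest mean, 72.1%, and the means of the other classes drawn run from 48.5% to 63.6%.

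The calcium- and sodium-activated channels and their auxiliary subunits were marked at 50.0% of 12 genes (40.7% without the cKO replicates numbered 1) and at 3.09 bp per kb. Kcnn1 (SK1), a small-conductance channel behind the afterhyperpolarization, was the gene of this class with a peak in all 11 libraries, and 1 stretch of it was shared by all 11. Kcnn2 (SK2), which shapes thalamic bursts, had peaks in 5 libraries. Kcnma1, the pore of the large-conductance BK channel, had peaks in 9, but at 1.46 bp per kb of its 722.8 kb window. Of the 11 auxiliary Kv genes 52.1% carried a peak on average, led by Kcnip1 and Kcnip3, calcium sensors of Kv4 channels, which had peaks in 11 libraries.

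Partners of these channels outside the Kcn symbol were marked at 3 to 14 of 14 genes per library (median 7), beside 13.2 to 61.1% of coding genes other than Kcn. All 14 were marked only in the 2 cKO libraries with strong peaks, the only ones with a peak at Lrrc55. Lrrc26, an auxiliary subunit of the BK channel, had a peak in 11 libraries. Hcn4, a pacemaker channel of thalamic relay neurons, and Abcc9, a sulfonylurea receptor, had peaks in 10. Lrrc26 had a mean length under peaks of 2004 bp in WT cocaine, 1537 bp in WT saline, 2040 bp in cKO cocaine and 899.7 bp in cKO saline.

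Cocaine was then compared with saline in WT mice. The Kcn windows held 118.2, 124.4 and 77.5 kb under peaks in WT cocaine and 83.3, 40.1 and 56.0 kb in WT saline. The groups overlapped by 1 library. The ratio of the geometric means was 1.83-fold (log2 difference 0.87 ± 0.37, SE, n = 3 and 3; exact two-sided permutation test, p = 0.20, adjusted over 12 comparisons 0.90). The smallest p that 3 against 3 libraries allow is 0.10. The share of genes with a peak was 57.6% ± 3.92 in WT cocaine and 50.4% ± 10.6 in WT saline (SD), a difference of 7.25 ± 6.50 points (SE; exact permutation test, p = 0.40). Relative to the other coding genes of the same library the log2 density differed by 0.14 ± 0.10 (SE; exact permutation test, p = 0.30). The whole lists covered 14.2 Mb in WT cocaine and 8.35 Mb in WT saline on average.

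Gene by gene, 15 of the 92 Kcn genes (16.3%) had more bp under peaks in every WT cocaine library than in any WT saline library, against 6.13% of all coding genes, and 0 had less in every one, against 0.111%. The channel genes are marked more often to begin with: of the genes with a peak in any WT library, the shares were 20.5% of 73 Kcn genes and 15.5% of 8149 coding genes. With the same number of peaks taken from each library 10 Kcn genes (10.9%) had this pattern against 3.21% of coding genes, and 7 of the 15 were among them (Kcna7, Kcnc1, Kcnc4, Kcng2, Kcng3, Kcnn1 and Kcns3). No test was run on single genes, since the exact permutation test of 3 against 3 libraries cannot give a p below 0.10.

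Of the 15 genes, 10 encode Kv alpha subunits and 5 of those are silent subunits. Kcng1 had 3839, 3860 and 4069 bp after cocaine in WT mice and 2507, 843 and 2566 bp after saline. Kcng2, on chromosome 18, had 3683, 4621 and 3599 bp against 1768, 1841 and 2302 bp, and Kcng3 had 2984, 3022 and 2557 bp against 2382, 1702 and 1652 bp. At each of the 3 genes every cocaine value lay above every saline value. Kcns3 had 2318, 2442 and 1460 bp in WT cocaine against 946, 0 and 0 bp in WT saline.

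Kcnc4 had 2846, 6117 and 4885 bp in WT cocaine against 2148, 1497 and 1576 bp in WT saline. The groups were separate, as at the other genes counted. Kcna7 had 4558, 4417 and 3957 bp against 3597, 2773 and 2583 bp, and Kcnj4 and Kcnc1 are given above. A further 5 genes, Kcna5, Kcnf1, Kcnh6, Kcnn1 and Kcnn4, differed by at most 916.7 bp in their means. Kcna5 and Kcnn4 had no peak in WT saline.

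In cKO mice the Kcn windows held 148.9 and 64.6 kb under peaks after cocaine and 182.9, 49.4 and 29.0 kb after saline. The highest and the lowest value both fell in the saline group. The log2 difference was 0.62 ± 0.99 (SE, n = 2 and 3; exact permutation test, p = 0.60), and the shares were 69.6% ± 23.1 and 57.2% ± 28.9 (SD; difference 12.3 ± 23.3 points, SE; exact permutation test, p = 0.70). The density relative to other coding genes differed by -0.02 ± 0.19 on the log2 scale (SE; exact permutation test, p = 0.90). The smallest p possible is 0.10, and all 3 adjusted values were 0.90. Without the replicates numbered 1 the differences were 0.77 in log2 length, 11.96 points in share and -0.09 in relative log2 density. With the same number of peaks per library the differences turned to -0.49 in log2 length and -5.25 points in share. Without cKO cocaine replicate 1 alone the share difference was -3.99 points. In cKO mice 3 Kcn genes (3.26%) were higher in every cocaine than in any saline library, against 2.66% of coding genes, and 0 were lower, against 0.0532%. They were Kcna3 with 409 and 277 bp against 176, 193 and 0 bp, Kcnn1 with 2033 and 1985 bp against 1473, 1442 and 613 bp, and Kcnv1 with 154 and 234 bp against 0 in all 3. With the same number of peaks per library 3 genes again had the pattern (against 0.629% of coding genes), and 0 of the named ones were among them. Without the replicates numbered 1, with 1 cocaine library left against 2 saline libraries, 34 genes (37.0%, against 18.6% of coding genes) were higher and 4 lower (against 0.789% of coding genes).

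A difference between the genotypes in the response to cocaine was not detected, and the smallest p of this test is 0.005. The difference of the 2 differences was -5.07 percentage points for the share (exact permutation test within genotype, 200 arrangements, p = 0.86) and 0.25 on the log2 scale for the length under peaks (p = 0.825, exact permutation; both adjusted 0.90). Without the cKO replicates numbered 1 they were -4.71 points and 0.10. The share difference turned positive with equal lists (7.79 points, exact permutation p = 0.26), with the replicate block (7.25 points) and without cKO cocaine replicate 1 (11.2 points), cKO saline replicate 3 (7.25 points) or WT saline replicate 1 (0.72 points). The length difference rose to 1.23 with equal lists (exact permutation p = 0.115) and turned negative without cKO cocaine replicate 2 (-0.35), cKO saline replicate 1 (-0.50) or WT saline replicate 2 (-0.0033).

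Between genotypes after saline, the cKO libraries exceeded the WT libraries by 6.88 ± 17.8 points in share and by 0.16 ± 0.85 in log2 length (SE, n = 3 and 3; exact permutation tests, p = 0.80 and 0.90). Without the cKO replicates numbered 1 the differences were -9.06 points and -0.60. Kcnc4 was higher in every cKO saline than in any WT saline library (1 gene, 1.09%, against 0.344% of coding genes), and 0 were lower, against 0.387%. Kcnc4 had 5404, 2863 and 2188 bp in cKO saline against 2148, 1497 and 1576 bp in WT saline. Kcnc4 lost this pattern with q of at most 0.05, with equal lists, with the gene body alone and with the gene ends alone. Without cKO saline replicate 1 the counts were 1 higher (against 0.402% of coding genes) and 10 lower (10.9%, against 3.37%), and without cKO saline replicate 3 they were 13 higher (14.1%, against 4.20%) and 0 lower (against 0.402%).

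After cocaine, the cKO libraries exceeded WT by 11.96 ± 16.5 points in share and differed by -0.09 ± 0.64 in log2 length (SE, n = 2 and 3; exact permutation tests, p = 0.60 and 0.90). Without cKO cocaine replicate 1 these differences were -4.35 points and -0.69. Here 9 Kcn genes (9.78%) were lower in every cKO cocaine than in any WT cocaine library, against 1.87% of coding genes, and 4 (4.35%) were higher, against 3.8%. The lower genes included Kcng1, Kcng3, Kcnf1, Kcna5, Kcna7, Kcnh6, Kcnn1 and Kcne3. Kcne3, an auxiliary subunit that keeps KCNQ1 channels open, had 1141 and 1465 bp in cKO cocaine against 3571, 3106 and 1949 bp in WT cocaine, and Kcna7 had 3523 and 2320 bp against 4558, 4417 and 3957 bp. This comparison and the WT comparison share the WT cocaine libraries. The 4 higher genes, Kcnmb3, Kcnip4, Kcnj1 and Kcnv1, had at most 332 bp on average in cKO cocaine. Without cKO cocaine replicate 1, 28 genes were lower (30.4%, against 8.64% of coding genes) and 6 higher (6.52%, against 5.76%). Without cKO cocaine replicate 2, 9 were lower (9.78%, against 3.45%) and 46 higher (50.0%, against 38.2%), so that the balance of these counts rested on which single cKO cocaine library was kept.

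H2Aub+ elements were defined as merged regions to which peaks of at least 2 replicates of a group contributed. They lay at 45 Kcn genes in WT cocaine (48.9%, against 18.96% of coding genes), 30 in WT saline (32.6% against 13.6%), 32 in cKO cocaine (34.8% against 13.8%) and 27 in cKO saline (29.3% against 12.003%). WT cocaine had the most. The cKO cocaine group has 2 libraries, so its elements need both, whereas the others need 2 of 3. Averaged over pairs of replicates the numbers were 39.0, 24.3, 32.0 and 19.3, beside 15.0%, 9.55%, 13.8% and 7.83% of coding genes. Without cKO saline replicate 1 the cKO saline number was 17 (18.5%, against 6.14% of coding genes), and cKO cocaine then has 1 library and no such element. In WT mice 16 Kcn genes had an element after cocaine but not after saline (17.4%, against 6.84% of coding genes), 1 gene (Kcnj8) the reverse (1.09% against 1.51%), and 29 had both (31.5% against 12.1%). In cKO mice 9 had one after cocaine only (9.78% against 4.18%), 4 after saline only (4.35% against 2.39%) and 23 in both (25.0% against 9.61%). An element in any group lay at 50 Kcn genes (54.3%, against 22.4% of coding genes). The shares with an element after 1 treatment only are over all genes. They are not corrected for how often channel genes carry elements, and so show no greater response to cocaine. All 4 groups had an element at 19 Kcn genes (20.7%, against 8.31% of coding genes), among them Kcnj4, Kcnq1, Kcnh3, Kcnc4, Kcnk9 and Kcng1 to Kcng3. The 16 genes with an element after cocaine alone in WT mice included Kcnd3, Kcna2, Kcnn3 and Kcnma1.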

How the data were processed

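The authors trimmed the reads, aligned them to mm10 with Bowtie2 2.3.4.1 and called broad peaks per library with MACS2 2.1.1.20160309.3 against total input. The deposited lists give each peak's fold enrichment, a ratio over input, and the deposited −log10 p and −log10 q, with q up to 0.0997. The 4 input libraries, 1 per group by their labels, were not analysed here. Where the replicates of a group share that input, its effect cannot be told apart from that of the group. Peaks were joined to RefSeq genes (GRCm38.p6) by 1 bp of overlap, with Python 3.11.15, numpy 2.4.6, pandas 2.3.3 and scipy 1.17.1. No reads were counted, so intervals from depth cannot be given.

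The library was the replicate. Groups were compared by exact two-sided permutation of library values, with Benjamini-Hochberg adjustment over 12 comparisons. Nothing in the labels says more about independence than that samples are separate pools. The p-values compare a group difference with those from other arrangements of these libraries. No 2 lists were identical. The code was tested on simulated peaks. Alternatives were q of at most 0.05, 7271 peaks per library, gene body or gene ends alone, a replicate block, and leaving out libraries. The members and lists were chosen with earlier results of these data known. Genes were described if they were Kcna1, Kcnc1 or Kcnd2, had a peak in 11 libraries (up to 15 by length), did not overlap between treatments (up to 10 per genotype), led their family, or were on a list of thalamic and glial channels. Other members were named after their values were seen. Sequences are not shown, as no genome was used here. Single values of some members are not reported here, and the counts include them.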

Additional observations from a re-analysis of the deposited data

How the results depend on the processing

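The difference in share between Kcn and other coding genes kept its direction under each alternative run (21.7 points with equal lists, 26.2 with gene ends alone, 28.4 with q of at most 0.05, 30.5 with the gene body alone, and 29.8 to 31.3 when single libraries were left out). For the log2 density of Kcn over other coding genes, q of at most 0.05 gave -0.11, equal list length -0.16, gene body alone -0.11 and gene ends alone 0.89, all of which passed 0.05, unlike the reported value. Single libraries left out gave -0.10 to -0.049, and the value without WT cocaine replicate 2 (-0.10) passed 0.05. With equal lists, cocaine minus saline in WT became 2.54 points and, in relative log2 density, 0.24 (exact permutation p = 0.10, the smallest possible), cocaine minus saline in cKO became -5.25 points and -0.49 (log2 length), cKO minus WT -7.79 points and -1.50 (log2 length) after cocaine and -0.27 (log2 length) after saline, and the treatment by genotype difference 7.79 points and 1.23 (log2 length). Then 14 genes were lower in cKO than in WT after cocaine, against 3.67% of coding genes, and 3 were lower after cocaine in cKO (0.295% of coding genes); with the gene body alone this count was 1 (0.0484%). Gene ends alone gave a relative density difference of 0.0043 in cKO and 5 higher genes (5.43%, against 3.20% of coding genes). Without both cKO replicates numbered 1, cKO minus WT became -9.06 points and -0.60 after saline and -4.35 points after cocaine, with 34 genes higher and 4 lower after cocaine in cKO. The cause was not tested in each case.

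Leaving out 1 library at a time, the WT counts ran from 18 to 27 higher and 0 to 3 lower, and the cKO counts from 4 to 33 and 0 to 4, beside 6.50 to 12.2% and 0.160 to 0.958% of coding genes in WT and 2.72 to 22.1% and 0.0823 to 1.09% in cKO. The WT count of 27 was without cocaine replicate 3, the cKO counts of 29 and 33 without cocaine replicate 2 and saline replicate 1, and fewer libraries make separation easier. The cocaine minus saline share ranged from 2.72 to 13.0 points in WT and from -3.99 (without cKO cocaine replicate 1) to 28.6 in cKO, and log2 length from 0.61 to 1.14 and from 0.014 to 1.37. For cKO minus WT, the share ranged from -9.06 (without cKO saline replicate 1) to 19.2 after saline and from -4.35 (without cKO cocaine replicate 1) to 28.3 after cocaine, and log2 length from -0.60 to 0.73 and from -0.69 to 0.51. The last turned positive without cKO cocaine replicate 2 (0.51) or WT cocaine replicate 2 (0.035). The relative density difference ranged from 0.072 to 0.21 in WT and from -0.19 to 0.14 in cKO, and the treatment by genotype difference from -21.4 to 11.2 points and from -0.50 to 0.85.

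Deviations of same-numbered libraries of different groups correlated at -0.12 to 0.47 and not above 0.1 in every pair. The 0.47 was between the cKO replicates numbered 1, and what these share was not tested. In comparisons of cKO cocaine with cKO saline the replicate block leaves out cKO saline replicate 3, which has no partner. It gave a treatment by genotype difference in share of 7.25 points and, in cKO, a cocaine minus saline difference of 0 points and 0.045 in log2 length, the values also obtained without that library and without the block. With 3 pairs the smallest exact p is 0.25, and larger with fewer, so no blocked comparison of 2 groups can pass 0.05. Elements required in all replicates lay at 35 (cocaine) and 20 (saline) Kcn genes in WT and at 32 and 16 in cKO, beside 13.0, 7.51, 13.8 and 5.77% of coding genes. Depth is unknown, so a gene without a peak may be unmarked or undetected.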

Other observations

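The X-linked Kv4 gene Kcnd1 had no peak in any library, whereas the autosomal Kcnd3 had peaks in 10 and Kcnd2 in 2. Kcne1l, also on the X chromosome, had 778 bp under peaks in WT cocaine replicate 2, 578 bp in cKO cocaine replicate 1, 780 bp in cKO saline replicate 1 and none in the other 8.

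Among noncoding neighbours, the window of Kcnd3os, a long noncoding RNA gene at the lower-coordinate end of Kcnd3, carried peaks in 9 libraries, with 1490, 897 and 338 bp in WT cocaine and 204, 0 and 0 bp in WT saline. It had 2131 and 538 bp in cKO cocaine and 1051, 135 and 190 bp in cKO saline. Kcnmb4os2, next to the BK auxiliary gene Kcnmb4, carried peaks in 8, with 690, 819 and 157 bp in WT cocaine against 322, 0 and 0 bp in WT saline. These windows overlap those of the coding genes and the lists have no strand, so the bases cannot be assigned to one or the other.

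Outside the channel genes, the endothelial marker Flt1 carried a peak in all 11 libraries and the oligodendrocyte marker Mog in none. Per library, markers were marked at 1 to 3 of 3 genes for astrocytes, 0 to 2 of 3 for oligodendrocytes, 0 to 3 of 3 for microglia and 1 to 2 of 2 for endothelium.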
